A study of Arabidopsis thaliana with 8 samples.

Results

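The genes described here encode glycoside hydrolases of 2 families of Arabidopsis thaliana, the beta-glucosidases (BGLU, glycoside hydrolase family 1) and the endoglucanases of glycoside hydrolase family 9 (GH9). Members were the genes whose symbol is BGLU plus a number or begins GH9 and that stand alone on a probe set in the platform annotation, with 1 probe set per gene. This gave 35 members, 20 BGLU and 15 GH9, of 12916 genes that stand alone on a named probe set and 22246 probe sets in all. The gene table names 47 BGLU and 24 GH9 genes. Of these, 2 BGLU and 4 GH9 genes share a probe set with a relative, the beta-glucosidase genes PYK10 and ATA27 are annotated under those symbols, and 23 BGLU and 5 GH9 genes are not analysed here.

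RNA came from whole germinating seedlings, 1 array per sample and 2 arrays per group. The 4 groups were Columbia wild type on medium without abscisic acid (ABA), Columbia wild type on 0.5 uM ABA, and the ABA hypersensitive mutants ahg1-1 and ahg3-1, both also on 0.5 uM ABA. The mutations lie in 2 related PP2C phosphatase genes, a class that dampens ABA signalling, and neither mutant is analysed here without ABA. Both genes have no probe set named for them alone here, so the mutant labels could not be checked against the mutated genes. All seedlings were collected after 2 days, and values are log2 expression, made with RMA by the authors. The labels do not state whether replicate samples were grown separately, so the p-values rest on a spread that may be technical. In whole seedlings, fewer cells of a type and less RNA per cell cannot be told apart.

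Beta-glucosidases of this family cut glucose from small molecules such as defence glucosides, hormone conjugates and lignin precursors. Several close relatives, among them PYK10, are stored in ER bodies, which are compartments of the endoplasmic reticulum of Brassicaceae seedlings. GH9 endoglucanases act on glucan chains of the cell wall and fall into 3 classes: class A is anchored in the membrane, class B is secreted, and class C is secreted and carries a carbohydrate-binding domain. Growth of the embryo out of the seed coat needs remodelling of the wall, and ABA delays that growth.

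Many members had low values. A mean below 5 over the 8 arrays was found for 18 of 35 members (12 BGLU and 6 GH9), or 51.4%, against 32% of all probe sets, and the array medians lay between 5.91 and 5.97. Among these 18, BGLU46 spanned 2.93 between its lowest and highest array and each of the others at most 1.05. The dim members were BGLU24, BGLU27, BGLU29, BGLU31, BGLU32, BGLU33, BGLU36, BGLU41, BGLU43, BGLU45, BGLU46, BGLU47, GH9A4, GH9B5, GH9B6, GH9B11, GH9B17 and GH9C3. BGLU33, which in vitro and in vacuoles is known to release ABA from its glucose ester, lay between 2.87 and 3.21 on all 8 arrays. The lowest values of the 8 arrays were 2.38 to 2.53, and a small difference between values this low cannot be told from background.

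**Figure D1:**
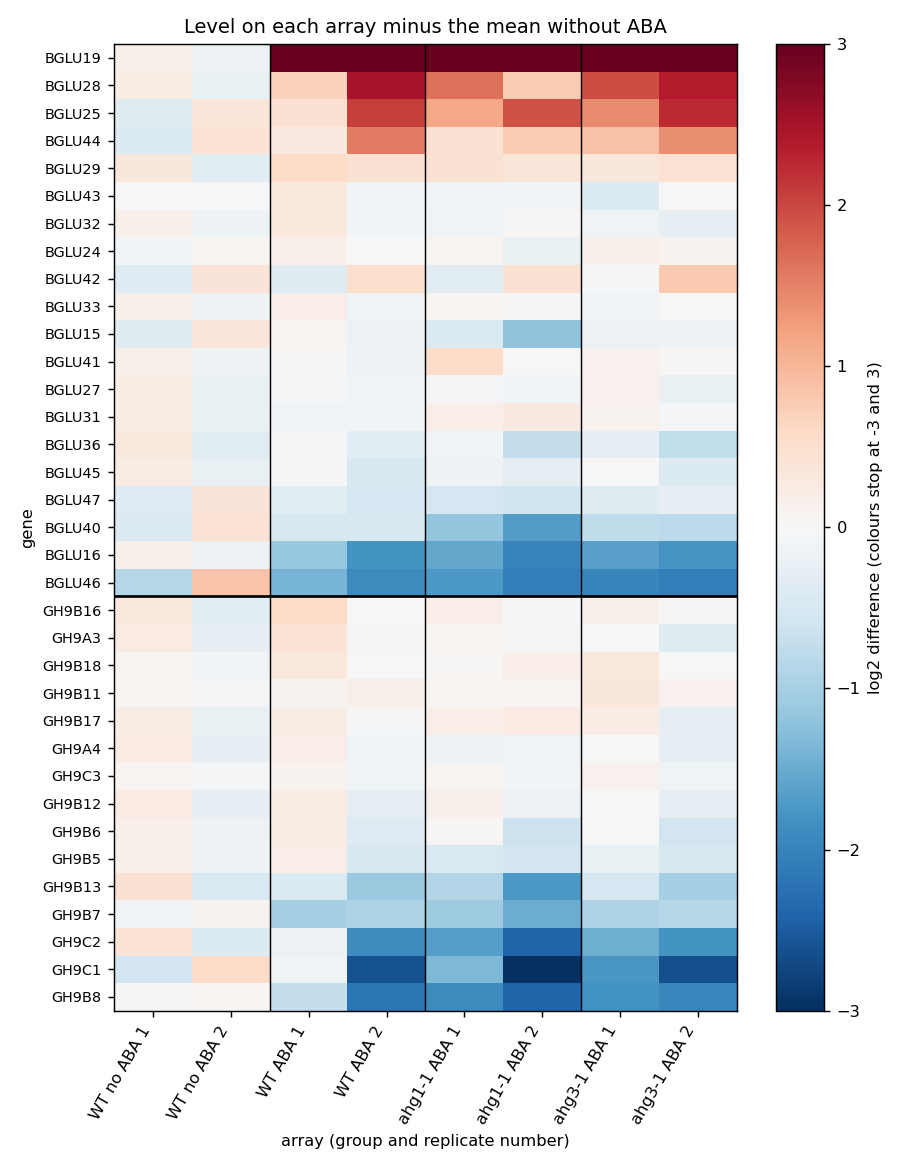
Level of each of the 35 genes on each array (columns, group and replicate number) minus the mean of the same gene on the 2 arrays without ABA, in log2 units, with BGLU genes above the thick line and GH9 genes below it. BGLU19 is far above the no-ABA mean on all 6 arrays with ABA, while GH9B8, GH9C1 and GH9C2 are well below it on 5 of the 6 and nearer to it on the first wild-type array with ABA. Colours stop at -3 and 3.

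The first comparison asked which of these genes differed with ABA in wild type. BGLU19, a beta-glucosidase of the same subfamily as PYK10, rose 13.6-fold, the largest difference among the 35. Without ABA it stood at 5.65 and 5.28 on the 2 arrays, and with ABA at 8.86 and 9.61. The groups lay far apart, and the mutants on ABA lay in the same range, at 9.09 and 9.72 in ahg1-1 and 9.54 and 9.69 in ahg3-1. The difference in wild type was 3.77 ± 0.33 (SE; limma, adjusted p = 0.0068, 95% interval 2.97 to 4.56), at 3.21 within replicate number 1 and 4.32 within number 2. BGLU19 was the 1 member of 35 that passed this test, which is 2.86%, against 1.37% of all probe sets. It also passed in 7 of the 8 fits that left out 1 array, with differences between 3.40 and 4.14. The exception was the fit without the first array on no ABA (difference 3.95, limma, adjusted p = 0.055), and the fit with only the 4 wild-type arrays missed the threshold too (limma, adjusted p = 0.062).

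Arrays with the same replicate number shared deviations from their group means, which the fit above counts as spread. With the replicate number as a block, a term for the difference between arrays numbered 1 and 2, 7 of 35 members passed, 3 higher (BGLU19, BGLU25 and BGLU44) and 4 lower (BGLU16, GH9B7, GH9B8 and GH9B13). That is 20% of the members, against 12.6% of all probe sets, or 8.57% against 6.1% for higher and 11.4% against 6.48% for lower. Over the 35 members the median difference was -0.02, beside 0.05 over all probe sets. The range ran from -1.66 to 3.77, and 8 of 35 members differed at least 2-fold in either direction, or 22.9% against 8.22% of all probe sets. The arrays of the 2 groups did not overlap for 10 of 35 members, or 28.6% against 32.7% of all probe sets, with 5 higher (18.4% of all probe sets) and 5 lower (14.3%). Within both replicate numbers 12 members were higher, or 34.3% against 38.5% of all probe sets, and 11 lower, or 31.4% against 26.3%. An unadjusted p below 0.05 was found for 6 members without the block, or 17.1% against 12.8% of all probe sets, and for 11 with it, or 31.4% against 26.6%.

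**Figure D2:**
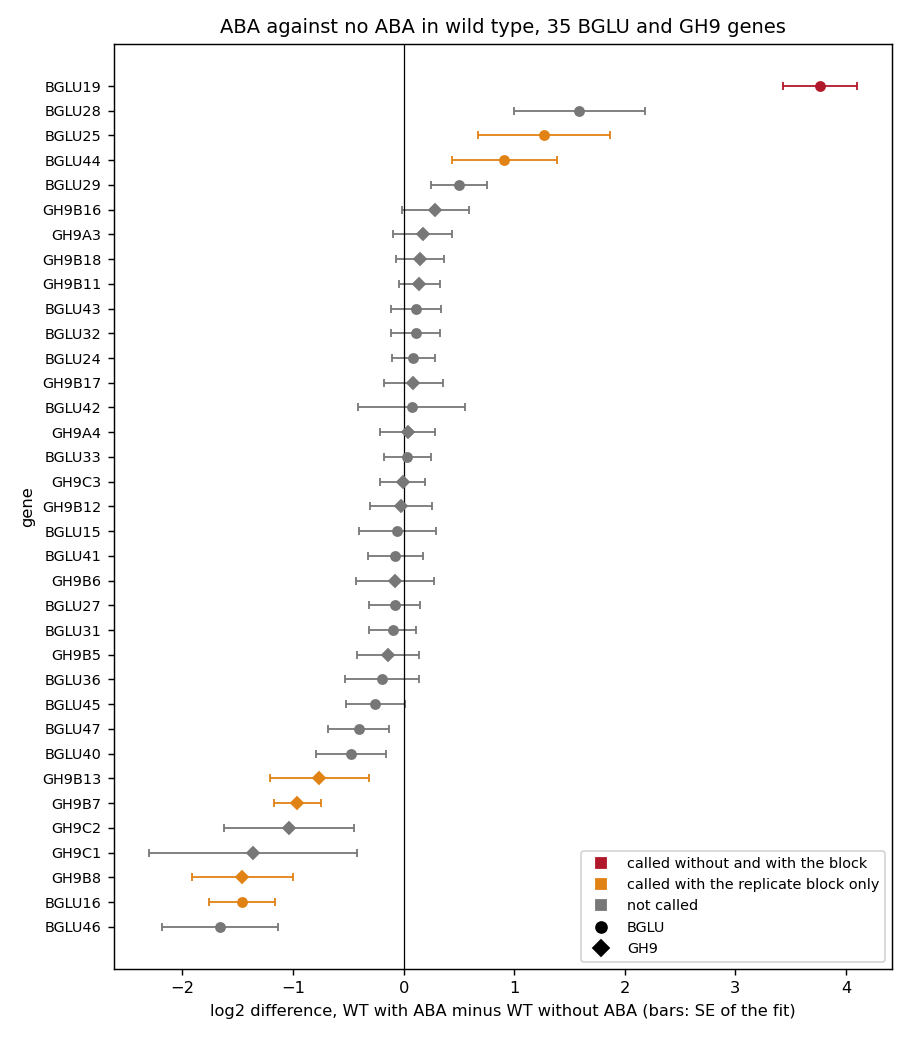
Log2 difference between wild type with and without ABA for each of the 35 genes (points, n = 2 arrays per group; bars, SE of the limma fit without the block). BGLU19 at 3.77 stands apart on the right; the genes called with the replicate block alone lie between -1.46 and 1.27.

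BGLU25 and BGLU24 belong to the same subfamily as BGLU19 and PYK10. BGLU25 stood at 7.96 and 8.69 without ABA and at 8.77 and 10.40 with it. The groups did not overlap, but by a narrow margin, and array 2 was higher than array 1 in all 4 groups. Its difference was 1.27, with an SE of 0.60 without the block and 0.24 with it (limma, adjusted p = 0.48 and 0.016). With the block it passed in 6 of 8 fits without 1 array, and was lost without the second array on no ABA or the second wild-type array on ABA (differences 1.10 and 0.83). BGLU24 lay between 3.03 and 3.40 on all 8 arrays and differed by 0.09. The ER body enzyme PYK10, no member by its symbol, stood at 12.74 and 13.34 without ABA and at 12.87 and 12.99 with it. Within the subfamily BGLU19 differed by 3.77 and BGLU25 by 1.27, while BGLU24 and PYK10 differed by 0.09 and -0.11. BGLU24 is a dim member, and PYK10 lay between 12.17 and 13.34 on all 8 arrays, so neither level was in the range of BGLU19. The probe set shared by BGLU21 and BGLU22, close relatives of PYK10, stood at 9.47 and 9.15 without ABA and at 9.76 and 11.11 with it (difference 1.12 ± 0.46, limma, adjusted p = 0.38, and 0.12 with the block).

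BGLU44, whose enzyme prefers mannosides in vitro, stood at 8.88 and 9.71 without ABA and at 9.57 and 10.84 with it. The groups overlapped, since the first array with ABA was below the second without it. The difference was 0.91, at 0.69 within number 1 and 1.13 within number 2 (limma, adjusted p = 0.55 without the block and 0.045 with it). With the block the call held in 3 of 8 fits without 1 array: without the first wild-type array on ABA and without either ahg1-1 array. In the other 5 fits the adjusted p reached 0.30 and the difference ran from 0.55 to 0.97. BGLU28, a beta-glucosidase known for breakdown of glucosinolates under sulfur shortage, stood at 4.96 and 4.51 without ABA and at 5.43 and 7.22 with it. Its difference of 1.59 ± 0.60 did not pass in either fit (limma, adjusted p = 0.32, and 0.11 with the block), with 0.47 for the arrays numbered 1 and 2.71 for those numbered 2. BGLU29, the next highest member after BGLU19, BGLU28, BGLU25 and BGLU44, differed by 0.50 ± 0.25 at a low level, from 4.07 and 3.41 to 4.29 and 4.20.

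Of the BGLU genes, BGLU16 alone passed as lower, and only with the block. It stood at 8.20 and 7.84 without ABA and at 6.89 and 6.23 with it, and between 6.01 and 6.50 in the mutants. All 6 arrays with ABA were below both arrays without it. The difference was -1.46 (limma, adjusted p = 0.084 without the block and 0.0026 with it), at -1.31 and -1.62 within the numbers. With the block it passed in all 8 fits without 1 array. BGLU46, which acts on monolignol glucosides, the stored precursors of lignin, stood at 4.08 and 5.79 without ABA and at 3.53 and 3.02 with it, and at or below 3.20 in both mutants. Its difference of -1.66 ± 0.52 was the lowest among members but did not pass (limma, adjusted p = 0.23, and 0.066 with the block), with -0.55 for the arrays numbered 1 and -2.77 for those numbered 2. Its relative BGLU45, which acts on the same class of glucosides, differed by -0.26, and BGLU47, close to both in sequence, by -0.41.

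The remaining BGLU genes differed by less than 0.5. BGLU40 stood at 7.23 and 8.09 without ABA and at 7.18 on both arrays with it, a difference of -0.48 ± 0.32. BGLU15, whose enzyme cleaves a flavonol glycoside, differed by -0.06 and BGLU42, which takes part in root responses to iron shortage and beneficial bacteria, by 0.07. BGLU42 lay between 6.77 and 7.09 on the arrays numbered 1 and between 7.53 and 7.93 on those numbered 2, whatever the group. BGLU27, BGLU31, BGLU32, BGLU33, BGLU36, BGLU41 and BGLU43 lay between -0.20 and 0.11, all at low levels. None of these passed (limma, adjusted p between 0.71 and 0.99).

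**Figure D3:**
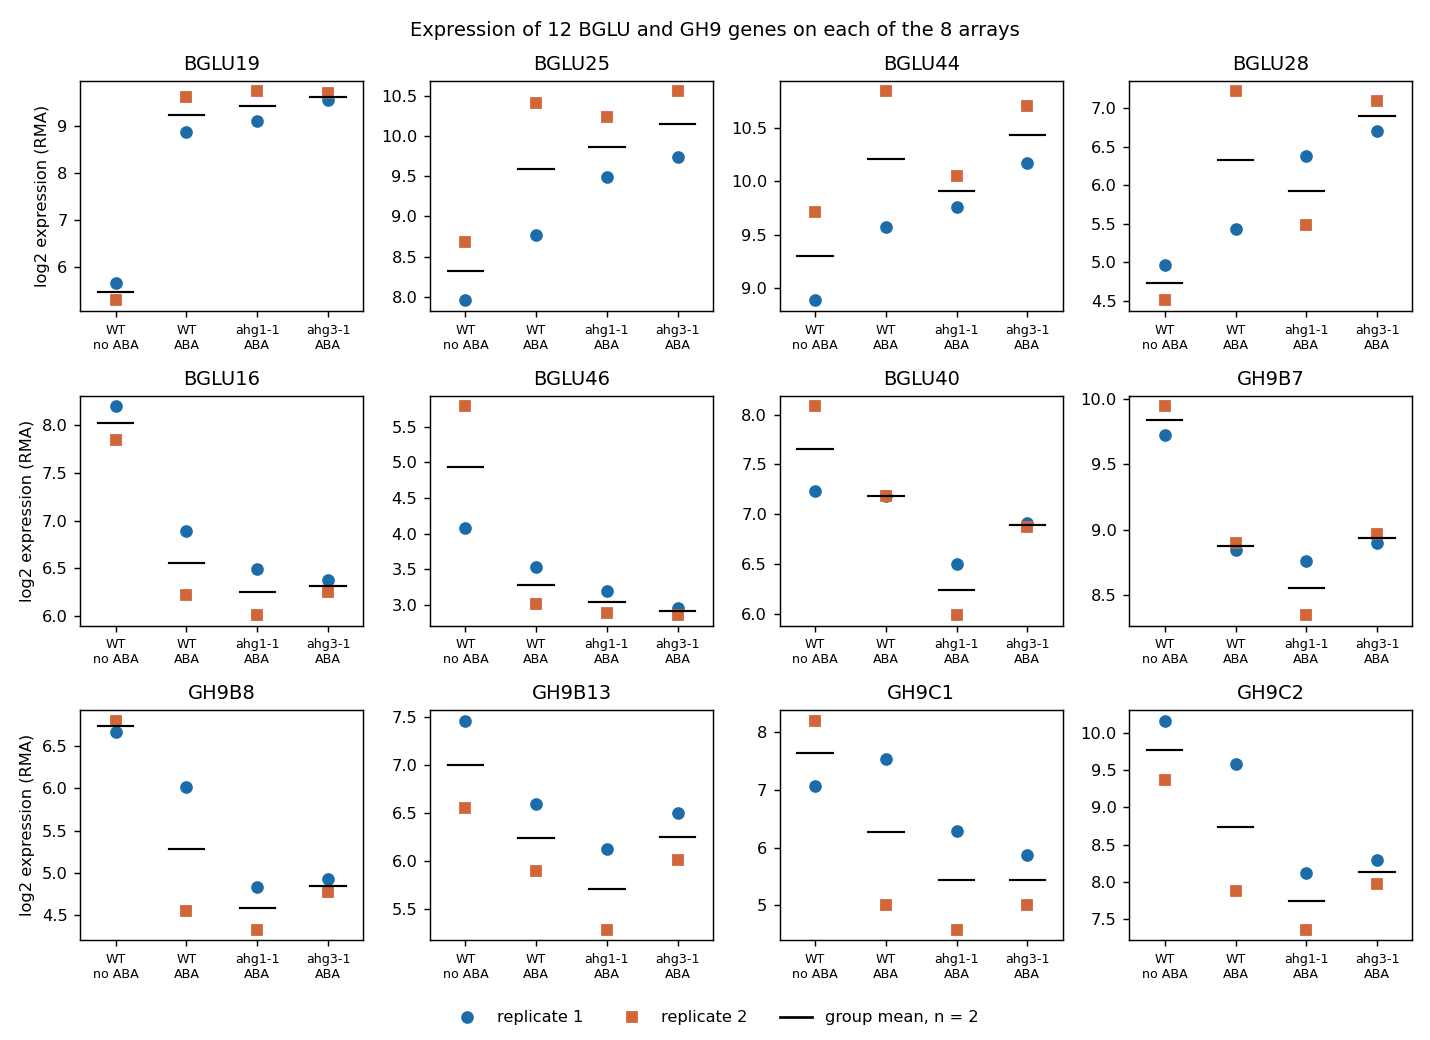
Log2 expression of 12 members on each array, by group (blue circles, replicate 1; orange squares, replicate 2; black lines, group means of 2 arrays). BGLU19 rises from below 6 to above 8.8 in all groups with ABA; in GH9B8, GH9C1 and GH9C2 the first wild-type array with ABA lies above the other 5 arrays with ABA.

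Among the secreted GH9 endoglucanases of class B, 10 were measured. GH9B7 stood at 9.73 and 9.94 without ABA and at 8.85 and 8.90 with it, so the groups were well separated and each was narrow. The difference was -0.96 ± 0.21 (limma, adjusted p = 0.11, and 0.017 with the block), at -0.88 and -1.04 within the numbers, and 5 of 8 fits with the block and without 1 array kept the call. It was lost without the second array on no ABA or without either wild-type array on ABA, with differences between -1.01 and -0.80. GH9B8 stood at 6.67 and 6.80 without ABA and at 6.01 and 4.55 with it, and between 4.33 and 4.92 in the mutants. Its first wild-type array with ABA was nearer to the arrays without ABA than the other 5 were. The difference was -1.46 ± 0.46 (limma, adjusted p = 0.23, and 0.034 with the block), and it was -2.19 without that array (limma, adjusted p = 0.032 without the block). With the block the call of GH9B8 held in 2 of 8 fits, without the first array on no ABA and without the first wild-type array on ABA, and the difference ran from -2.10 to -0.81 over the 8.

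GH9B13 stood at 7.46 and 6.54 without ABA and at 6.59 and 5.89 with it. Array 2 was lower than array 1 in all 4 groups, and the groups overlapped. Its difference of -0.76 had an SE of 0.45 without the block and 0.16 with it (limma, adjusted p = 0.63 and 0.024), and with the block it held in 3 of 8 fits, those without the second array on no ABA or either ahg1-1 array, with an adjusted p of up to 0.15 in the others. GH9B5, GH9B6, GH9B11, GH9B12, GH9B16, GH9B17 and GH9B18 differed by -0.14 to 0.29, and none passed with or without the block. The probe set shared by GH9B14 and GH9B15 stood at 3.78 and 4.80 without ABA and at 3.24 and 2.98 with it. Its difference was -1.18 ± 0.35 and passed with the block alone (limma, adjusted p = 0.20, and 0.037 with the block). The set shared by GH9B9 and GH9B10 lay between 2.79 and 3.24 on all arrays.

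In class C, GH9C1 and GH9C2 differed widely between the arrays of a group, and GH9C3 did not. GH9C1 stood at 7.06 and 8.20 without ABA and at 7.54 and 5.01 with it, then at 6.29 and 4.58 in ahg1-1 and 5.87 and 4.999 in ahg3-1. The first wild-type array with ABA lay between the arrays without ABA, and the other 5 arrays with ABA were below all 3. The difference was -1.36 ± 0.94 and did not pass (limma, adjusted p = 0.73, and 0.29 with the block). The difference was 0.47 for arrays numbered 1 and -3.19 for those numbered 2. GH9C2 stood at 10.17 and 9.37 without ABA and at 9.58 and 7.88 with it, then at 8.12 and 7.36 in ahg1-1 and 8.29 and 7.97 in ahg3-1. As in GH9C1, the first wild-type array with ABA lay between the arrays without ABA, and the other 5 with ABA were below all 3. The difference of GH9C2 was -1.03 ± 0.59 (limma, adjusted p = 0.61, and 0.063 with the block). Unlike GH9C1, it was lower within both numbers, at -0.59 within number 1 and -1.48 within number 2. GH9C3 stayed between 4.63 and 4.89 on all 8 arrays. Of the membrane-anchored class A, GH9A3 (also called KOR3, a relative of the cellulose synthesis enzyme KORRIGAN) lay between 6.30 and 7.07 and GH9A4 between 4.07 and 4.59, with differences of 0.17 and 0.04.

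Markers of seed reserves and of photosynthesis differed between the same groups. The 2 measured reserve genes, the oleosin OLEO3 and the vicilin-like PAP85, both passed as higher with ABA, and their mean level was 5.24 and 5.28 without ABA, 10.1 and 11.8 in wild type with ABA, 11.8 and 12.5 in ahg1-1 and 11.67 and 12.02 in ahg3-1. The 8 measured genes of photosystems and their antennae had mean levels of 11.95 and 11.2 without ABA, 9.71 and 7.40 in wild type with ABA, 7.57 and 6.68 in ahg1-1 and 7.77 and 7.18 in ahg3-1, and 1 of 8 (PSAN, at -4.74) passed as lower without the block and 8 of 8 with it, among them LHCB4.1 (-3.63) and LHCB4.2 (-3.62). In both lists the first wild-type array with ABA stood nearer to the arrays without ABA than the other 5 did, as for GH9B8, GH9C1 and GH9C2. The part of these marker changes in the values of the BGLU and GH9 genes was not tested. Since all seedlings were collected at the same time, the stage of germination and a response to ABA cannot be told apart.

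Several members lie close together in the genome, and their ABA differences were often unlike. By the gene table, 9 pairs of members are at most 20 kb apart. BGLU16 had a difference of -1.46 and its neighbour BGLU27 one of -0.08, and the difference of BGLU27 exceeded that of BGLU16 by 1.04 within number 1 and by 1.72 within number 2. BGLU44 differed by 0.91 beside 0.11 for BGLU43, and BGLU46 by -1.66 beside -0.26 for BGLU45. BGLU28 differed by 1.59 between BGLU15 at -0.06 and BGLU29 at 0.50. These gaps were wider within number 2 than within number 1. BGLU43 minus BGLU44 was -0.39 within number 1 and -1.20 within number 2, and BGLU45 minus BGLU46 was 0.31 and 2.50. BGLU28 minus BGLU29 was 0.25 and 1.92, and BGLU15 minus BGLU28 was -0.03 and -3.26. BGLU28 and BGLU46 passed in neither fit. The GH9 neighbours GH9B11 and GH9B12, and GH9B16, GH9B17 and GH9B18, as well as BGLU31 and BGLU32, all lay between -0.10 and 0.29. These contrasts between genes are a description and were not tested. BGLU27, BGLU29, BGLU43 and BGLU45 are among the dim members, so a change in them could be too weak to be seen.

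**Figure D4:**
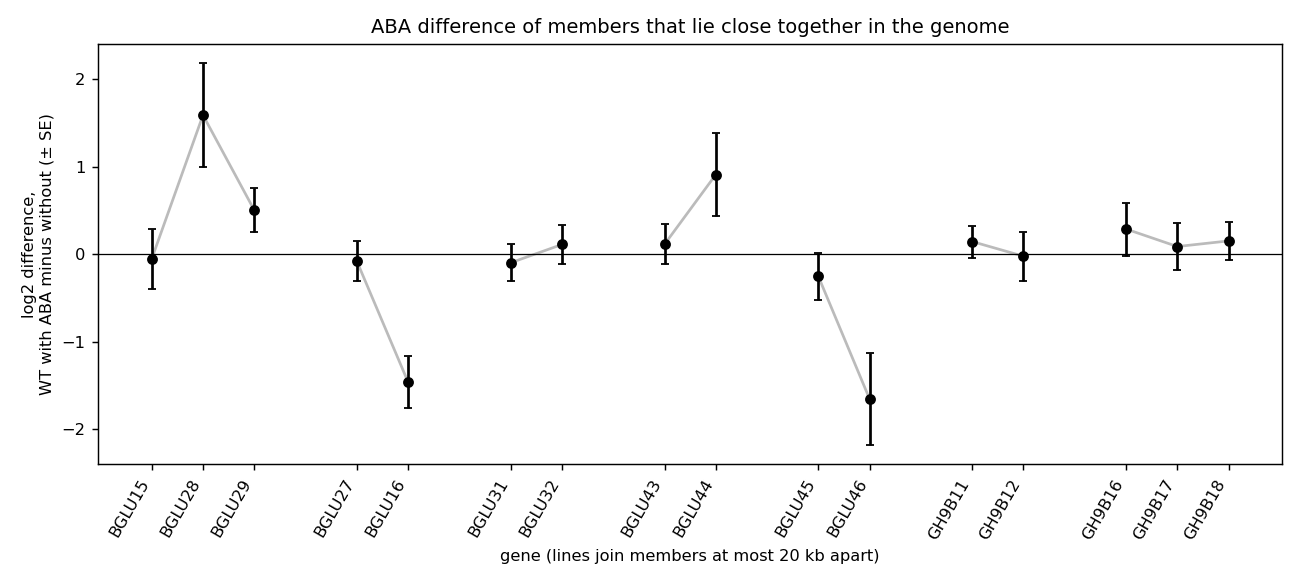
Log2 difference between wild type with and without ABA for members that lie at most 20 kb apart, joined by lines (points, n = 2 arrays per group; bars, SE of the limma fit without the block). BGLU16, BGLU44, BGLU46 and BGLU28 each differ by more than their nearest member.

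Other genes of wall building and of the ER body were set beside the members. Among 11 measured wall glycoside hydrolases of other families, 1 passed as lower and 0 as higher without the block: XTH18, a xyloglucan endotransglucosylase, at -2.68 ± 0.37 (limma, adjusted p = 0.028). With the block 3 were lower and 1 higher, the latter XTH16 at 1.47, and XTH26 was among the lower ones at -1.05. Over all probe sets 0.679% passed as lower and 0.692% as higher without the block, and 6.48% and 6.1% with it. Among 8 measured genes of the cellulose synthesis list 0 passed without the block (limma; CSLC04 had the smallest adjusted p, 0.050 after rounding and above the threshold), and 3 passed as lower with it. These were CSLC04 (-1.29), of the family that makes the backbone of xyloglucan, CSLA03 (-1.16), of the family that makes mannans, and COB (-0.998), a membrane-anchored protein of cellulose orientation, and the list as measured holds COB and cellulose synthase-like genes but no cellulose synthase. The medians of the 2 lists were -0.52 and -0.13. None of 6 measured ER body genes (median -0.12) and none of 3 measured glucosyltransferase genes that conjugate ABA (median 0.12) passed in either fit. Root markers (PYK10, EXPA7 and EXPA18) and the seed coat gene BAN did not pass either, with a median of -0.61 for the former and a difference of 0.19 for the latter. EXPA7 differed by 0.83 within number 1 and -2.06 within number 2, and EXPA18 by 0.72 and -2.30, so the 2 numbers had opposite directions.

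The second comparison asked how ahg1-1 differed from wild type when both grew with ABA. By limma 0 of 35 members passed with or without the block, against 0% of all probe sets without the block and 0.0135% with it. At an unadjusted p below 0.05 there was 1 member without the block (BGLU40), or 2.86% against 1.47%, and 4 with it (BGLU15, BGLU40, GH9B13 and GH9C2), or 11.4% against 8.62%. BGLU40 stood at 7.18 on both wild-type arrays and at 6.50 and 5.99 in ahg1-1, a difference of -0.94 ± 0.32 (limma, adjusted p = 1 without the block and 0.52 with it). BGLU15 stood at 7.78 and 7.52 in wild type and at 7.28 and 6.49 in ahg1-1, a difference of -0.77 ± 0.35. The arrays did not overlap between ahg1-1 and wild type for 5 of 35 members, or 14.3% against 19.6% of all probe sets. Of these BGLU31 was higher in ahg1-1 (2.86% against 11%), and BGLU15, BGLU40, GH9B7 and GH9B11 were lower (11.4% against 8.66%). BGLU31 and GH9B11 are dim members. For BGLU15 and BGLU40 every ahg1-1 array was below every wild-type array on ABA, and the second ahg1-1 array was the lowest of all 8.

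Values were lower in ahg1-1 than in wild type within both numbers for 17 of 35 members, or 48.6% against 25.2% of all probe sets, and higher within both for 4 (BGLU19, BGLU27, BGLU31 and BGLU41), or 11.4% against 31.3%. Of the lower ones BGLU24, BGLU29, BGLU36, BGLU46, BGLU47, GH9B5, GH9B6 and GH9B11 are dim, and of the higher ones BGLU27, BGLU31 and BGLU41. Within number 1 BGLU36 differed by -0.03, GH9B11 by -0.04 and BGLU27 by 0.01. Differences this small at such levels cannot be told from background. Of the 15 GH9 genes 9 were lower within both numbers, among them GH9C2 (-1.46 and -0.53), GH9C1 (-1.25 and -0.43), GH9B8 (-1.18 and -0.22) and GH9B13 (-0.47 and -0.61). The median over all 35 was -0.17, beside 0.01 over all probe sets, at -0.13 within number 1 and -0.09 within number 2. It was 0.01 without the first wild-type array on ABA. That fit sets both ahg1-1 arrays against the second wild-type array alone, so the difference between arrays 1 and 2 enters it. The 35 genes share the same arrays, so their directions are not independent of one another. BGLU19 differed by 0.17 between the mutant and wild type (95% interval -0.62 to 0.97) and BGLU16 by -0.30 (95% interval -1.02 to 0.41) with 2 arrays per group, so differences as large as these bounds remain within the error. The highest differences were those of BGLU41 and BGLU31, both at 0.34 and both dim. The probe set of PYK10 stood at 12.87 and 12.99 in wild type on ABA and at 12.17 and 12.36 in ahg1-1, a difference of -0.66 ± 0.24 (limma, adjusted p = 1, and 0.49 with the block). The 6 ER body genes had a median of -0.61 and the 8 photosynthesis genes one of -1.60 in ahg1-1 against wild type, and 0 of either list passed (limma). Their part in the values of the members was not tested.

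**Figure D5:**
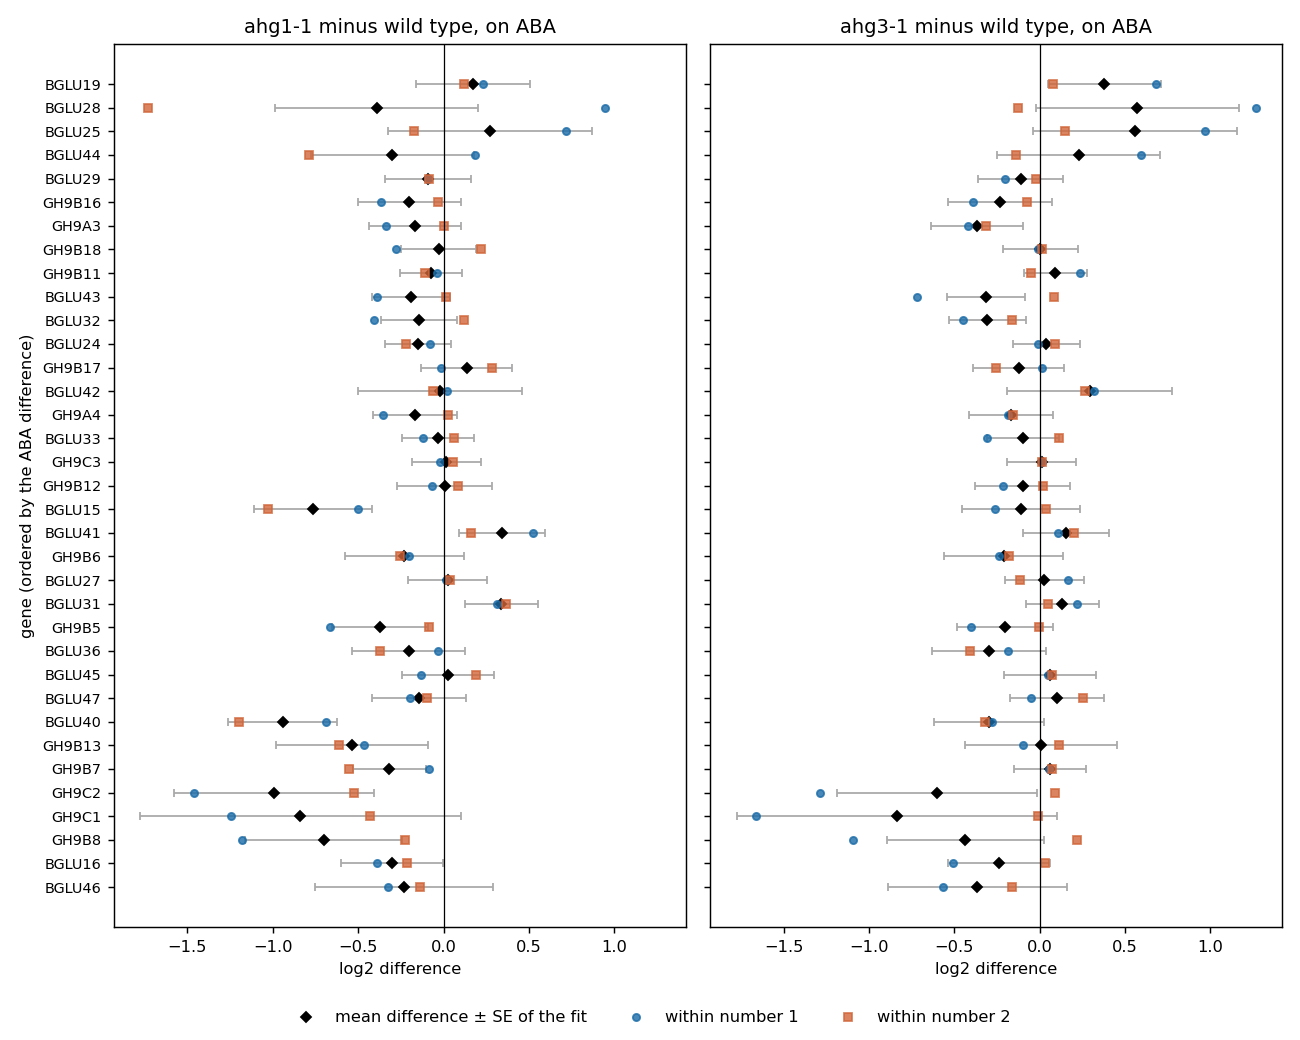
Log2 difference of ahg1-1 (left) and ahg3-1 (right) from wild type on ABA for the 35 genes, in the order of the ABA difference (black diamonds, mean with SE of the limma fit, n = 2 arrays per group; blue circles and orange squares, the difference within replicate numbers 1 and 2). GH9C1, GH9C2 and GH9B8 lie left of 0 within number 1 in both mutants, and in ahg3-1 they lie between -0.01 and 0.22 within number 2.

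For ahg3-1 the comparison again used wild type grown with ABA, and so the same wild-type arrays as for ahg1-1. By limma 0 of 35 members passed with or without the block, and 0 had an unadjusted p below 0.05 in either fit, against 0.0809% of all probe sets without the block and 4.41% with it. Values were lower within both numbers for 11 members, or 31.4% against 29% of all probe sets, and higher within both for 8, or 22.9% against 30.8%. The arrays did not overlap for 6 of 35, or 17.1% against 15.6%. All of them were BGLU genes, and all but BGLU40 are dim members. Of these BGLU31 and BGLU41 were higher in ahg3-1 (5.71% against 7.39%), and BGLU29, BGLU32, BGLU40 and BGLU46 were lower (11.4% against 8.21%). The largest difference was that of GH9C1, -0.84 ± 0.94, which was -1.66 within number 1 and -0.01 within number 2. GH9C2 (-0.60) and GH9B8 (-0.44) also rested on number 1, with 0.09 and 0.22 within number 2. GH9A3 differed by -0.36 ± 0.27, at -0.42 and -0.31 within the numbers, and BGLU46, BGLU32 and BGLU36 by -0.36, -0.31 and -0.30. On the other side BGLU28 differed by 0.57, BGLU25 by 0.56 and BGLU19 by 0.38 (95% interval -0.42 to 1.18), with 1.27, 0.97 and 0.68 within number 1 and -0.13, 0.15 and 0.08 within number 2. BGLU42 differed by 0.29, at 0.32 and 0.27 within the numbers, BGLU41 by 0.15 and BGLU31 by 0.13. The median over the 35 was -0.10, beside 0.003 over all probe sets, at -0.19 within number 1 and 0.01 within number 2. It was 0.05 without the first wild-type array on ABA, a fit that sets both ahg3-1 arrays against the second wild-type array alone.

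The fourth comparison tested whether the mutants differed from each other. By limma 0 of 35 members passed with or without the block, against 0% of all probe sets without the block and 0.0045% with it. At an unadjusted p below 0.05 there were 0 without the block and 1 with it, GH9B13 (2.86% of members against 2.61% of all probe sets), at -0.55 in ahg1-1 minus ahg3-1. BGLU28 stood at 6.38 and 5.49 in ahg1-1 and at 6.70 and 7.09 in ahg3-1, a difference of -0.96 ± 0.60. The set shared by BGLU21 and BGLU22 stood at 9.96 and 9.49 in ahg1-1 and at 10.5 and 11.1 in ahg3-1, a difference of -1.06 ± 0.46, and PYK10 at 12.17 and 12.36 against 12.70 and 12.78. BGLU15 and BGLU40 differed by -0.65 each, and BGLU44 by -0.53. For BGLU28, BGLU15, BGLU40, BGLU44, PYK10 and the shared set the arrays of the mutants did not overlap, with ahg1-1 lower, and none passed (limma, adjusted p = 1 for each, with or without the block). Among members, 8 of 35 were lower in ahg1-1 without overlap, or 22.9% against 7.17% of all probe sets, and 2 of 35, BGLU31 and BGLU32, were higher, or 5.71% against 11.3%. Of the lower ones BGLU24, BGLU47 and GH9B11 are dim, at -0.19, -0.25 and -0.165, and BGLU31 and BGLU32 are dim too. The members share the same arrays, so their directions are not independent of one another. The highest differences with 1 direction within both numbers were those of BGLU31 (0.21), GH9A3 (0.20), BGLU32 (0.16), BGLU46 (0.13) and GH9B12 (0.11). BGLU19 differed by -0.21 (95% interval -1.002 to 0.59).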

How the data were processed

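RNA from whole seedlings was hybridised to 1 single-colour array per sample, 8 arrays in 4 groups of 2. The authors made the deposited log2 values with RMA, per the submitters' processing notes; its version and settings are not stated there. Groups were taken from the sample titles, because the free-text description of every sample repeats the wording for untreated wild type.

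Members and lists were chosen with earlier results of these data known. The platform annotation names 1 gene for 13072 of 22246 probe sets, several for 503 and none for 8671; all 35 members were found in the gene table, each with 1 probe set. The deposited log2 values were fitted without further normalization by limma 3.58.1 (R 4.3.3), with all 8 arrays and 4 group means, and p-values were adjusted by Benjamini-Hochberg over 22246 probe sets, with a threshold of 0.05. The scripts were tested on simulated data. Deviations from group means of same-numbered arrays correlated in all group pairs (r from 0.50 to 0.84), so the replicate number, taken from the titles, also entered as a block, and that value is given where it changes a call.

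Named for each comparison were the members called with or without the block, then the 5 highest and 5 lowest with the same direction within both numbers, and members of known role. Genes of other lists were named where called, at most 3 per list by size. The genes of the root and seed coat lists were named although none was called. Alternatives were the block, each array left out, cyclic loess, median centring, a filter at a mean of 5, fits of only the 4 arrays compared, and a robust trended variance. With 2 arrays per group, their number limits the precision. The lists for glucosinolate breakdown and endosperm had no gene alone on a named probe set and were not analysed here. Positions of genes served only to find neighbours, since no source used here ties the gene table's build to the arrays.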

Additional observations from a re-analysis of the deposited data

Results flagged for a closer look

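GH9B7, a secreted endoglucanase, stood out because both ahg1-1 arrays were below wild type on ABA of the same number (by -0.08 and -0.55) and both ahg3-1 arrays above it (by 0.05 and 0.07). The difference between the mutants was -0.38 ± 0.21 (limma, adjusted p = 1), so it did not pass, and both mutants were set against the same 2 wild-type arrays.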

How the results depend on the processing

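With the replicate number as a block, the members called as higher with ABA went from 1 to 3 and those called as lower from 0 to 4, and in no mutant comparison was a member called; the changes in count arise because the block takes the shared difference between arrays 1 and 2 out of the error. With only the 4 arrays compared, 0 members were called as higher. Leaving out each array gave 0 to 1 called as higher and 0 to 1 as lower. Leaving out each array with the block, an alternative chosen after seeing the data, gave 1 to 4 as higher and 1 to 7 as lower. BGLU19 kept its direction under every setting, with differences from 3.33 to 4.20. In the comparisons of mutants 0 members were called under all alternatives run (limma). The median over members ranged from -0.13 to 0.12 for ABA, from -0.25 to 0.0121 for ahg1-1, from -0.26 to 0.0548 for ahg3-1 and from -0.15 to 0.0229 for ahg1-1 against ahg3-1 when arrays were left out. Without an array of a compared group, 2 arrays are set against 1, so the difference between arrays 1 and 2 enters these medians. Over members with a mean of at least 5 the medians were -0.30 for ahg1-1 against wild type and -0.29 for ahg1-1 against ahg3-1, beside -0.17 and -0.03 over all 35. Over all probe sets with a mean of at least 5 they were 0.03 and -0.003. Over all 35, the median for ahg1-1 against ahg3-1 was -0.0595 after cyclic loess and -0.0105 after median centring. The cause was not tested. Every member has 1 probe set, so a choice among probe sets changed nothing. Low signal limits 18 of 35 members, and 2 arrays per group limit all.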
